A study of Homo sapiens with 9 samples.

Results

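Imprinted genes are transcribed mainly from the chromosome inherited from 1 parent, and 41 of them were followed here in human cells with reduced SmcHD1. They were taken as a list of known imprinted genes and grouped by chromosomal locus (11p15.5, 15q11, 14q32, 7q21 and single loci elsewhere) and by the parental allele usually expressed. IGF2, IGF2R, NAP1L4 and NAP1L5 were left out. A probe was assigned to a gene through its RefSeq accession, which matched 53 of the 42405 probes on the array to 40 of the 41 genes. Of these, 42 probes of 33 genes gave enough signal to be tested, among 32090 tested probes and 15925 tested named genes. The probes of 30 of the 33 genes were well above background on all 9 arrays, while H19 was so on all arrays of CTL alone, DIRAS3 on those of KD3 and CTL and KLF14 on those of KD3 and KD4. H19 was thus tested only through the group where it was highest. DIRAS3 was tested only through the groups where it was higher than in KD4.

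SmcHD1 is a chromatin protein that takes part in X inactivation and in silencing of clustered genes. At an imprinted locus, a control region methylated on only one parental chromosome sets which allele is active, often through a long non-coding RNA or an insulator bound by CTCF. Several of these genes act on fetal and placental growth, and those of 11p15.5 are altered in Beckwith-Wiedemann and Silver-Russell syndromes. The arrays measured the RNA of both alleles together, so no value below says which allele it came from, and the allele named for a gene is textbook background.

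Gene expression was compared between 3 populations of HEK293, a line derived from human embryonic kidney. KD3 and KD4 carried shRNA 3 or shRNA 4 against SmcHD1, CTL carried the control shRNA NC5, with no further treatment. All 3 were made by retroviral infection and puromycin selection and were grown in DMEM with 10% FBS as stable lines, so that every cell population, CTL included, held an integrated vector. Each group was measured on 3 one-color Agilent arrays that the methods describe as biological triplicates, and both knock-downs were compared with the same CTL arrays. Where the triplicates came from a single infected population, p-values measure the spread between samples of that population. In bulk RNA, fewer cells expressing a gene and less RNA per cell cannot be told apart.

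The hairpins define the groups, and each is written as the labels give it, with the arm after the loop in capitals. Each hairpin had 68 bases with arms of 25 bases, and the first arm differed at 2 positions from a perfect complement of the second in all 3.
CTL: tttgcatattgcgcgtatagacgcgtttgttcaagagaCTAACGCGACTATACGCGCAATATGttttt
KD3: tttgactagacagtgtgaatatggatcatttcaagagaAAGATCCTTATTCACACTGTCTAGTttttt
KD4: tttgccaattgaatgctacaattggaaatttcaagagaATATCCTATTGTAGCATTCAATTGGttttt

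Values are log2 signals after quantile normalization, which gives every array the same distribution. On each array, 74.6% to 79.2% of probes were well above background. The lowest correlation between replicate arrays was 0.995 across probes, and precision is limited by having 3 arrays per group. Differences from CTL are log2 fold changes ± standard error from limma, given for KD3 and then KD4 where a pair of values has no label. A gene was represented by its brightest tested probe. It passed when the adjusted p from limma, fitted over all 9 arrays with Benjamini-Hochberg adjustment over the 32090 probes, was under 0.05, and a fold of at least 1.8 was noted in addition. The targeted gene was checked first. The brightest SMCHD1 probe had log2 values of -0.97 and -1.53 against CTL, which left 51.0% and 34.6% of the CTL signal, and all 3 of its probes were lower on every knock-down array. All 8 markers of HEK293 were tested, and PAX2, NEFM, LHX1 and NEFL fell in both knock-downs, PAX2 with log2 values of -2.41 and -2.65 against CTL, while KRT18 rose in KD4 (0.34, adjusted p = 0.0174). Of all tested genes, 20.3% passed in the same direction in both. The summed signal of these 8 markers spanned 139000 to 154000 in KD3, 161000 to 166000 in KD4 and 152000 to 164000 in CTL, and their part in the results was not tested. This sum mainly follows VIM, the brightest of the 8 (mean log2 16.9 in CTL, next KRT18 at 14.0), and hardly reflects the fall of PAX2. Of 5 markers of neuroblastoma, the other cell type the study used, PHOX2A and DBH were not above background on any array, and HAND2 fell in both knock-downs. TH (0.04 and 0.08) and CHGA (0.12 and 0.30) were well above background on every array and passed in neither. That list summed to 744 to 815 in KD3, 759 to 897 in KD4 and 707 to 848 in CTL. For 9 markers of blood, fibroblasts and endothelium the sums were 416 to 440, 437 to 500 and 421 to 478, with HBB, COL1A2 and PECAM1 not above background on any array. The 6 tested markers of these cell types passed in neither knock-down.

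Of the 33 tested imprinted genes, 10 passed in KD3, 2 higher and 8 lower than CTL, against 10.5% of all 15925 tested genes higher and 15.0% lower. In KD4 16 passed, 5 higher and 11 lower, against 14.8% and 20.0% of all genes. The 10 genes of KD3 all passed in the same direction in KD4, which is 30.3% of the members beside 20.3% of all genes. PHLDA2 and UBE3A were up-regulated in both, and H19, KCNQ1, CDKN1C, OSBPL5, BEGAIN, GRB10, GNAS and NTM were down-regulated in both. H19 entered these counts only through CTL, where it was highest, so its count as lower is no independent support. For GRB10 and OSBPL5 only the brighter probe passed. With the fold of 1.8 in addition, 6 genes passed in KD3 and 6 in KD4, beside 4.40% and 5.50% of all genes, and 5 passed in both (PHLDA2, KCNQ1, CDKN1C, BEGAIN and NTM), beside 3.26%. With normexp background correction, an alternative that compresses dim probes, only PHLDA2 and KCNQ1 of these 5 still reached that fold in both. The other 6 genes of KD4 were DLK1, TFPI2 and PEG3, which were higher, and PPP1R9A, DIRAS3 and INPP5F, which were lower. DIRAS3 was tested only through KD3 and CTL, where it was higher, so its count as lower in KD4 is no independent support. The 33 genes had medians of -0.0541 (KD3) and -0.0948 (KD4) on the log2 scale, beside -0.0145 and 0.00178 over all tested genes. The count in KD4 fell to 9 without KD4 replicate 1 or KD4 replicate 2 and to 10 without KD4 replicate 3, and the count in both fell to 6 without CTL replicate 3.

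**Figure D1:**
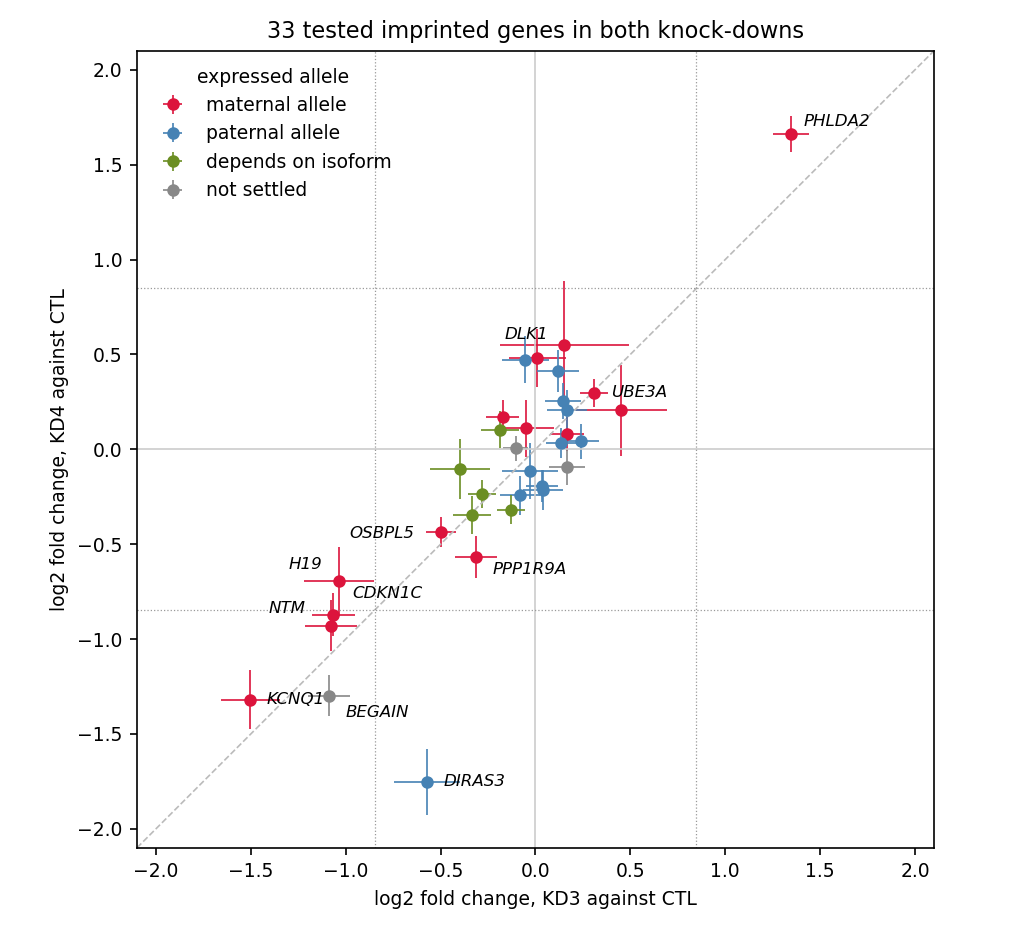
Log2 fold change against CTL of the 33 tested imprinted genes in KD3 (x axis) and KD4 (y axis), with bars of 1 standard error and colors for the usually expressed allele. Dotted lines mark the 1.8-fold limit and the dashed line equal values. PHLDA2 lies alone at the upper right, and DIRAS3 lies well below the dashed line. Both axes use the same CTL arrays.

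Split by allele, 7 of the 14 tested maternally expressed genes passed in KD3 (2 higher, 5 lower) and 9 in KD4 (3 higher, 6 lower), where 25.5% and 34.8% of all tested genes passed in either direction. Of the 11 tested paternally expressed genes, 0 passed in KD3 by limma, where DIRAS3 came closest with an adjusted p of 0.0505. At an unadjusted p under 0.05 this count was 2 by limma and 1 by the methods' t-test. In KD4, 3 passed (DLK1 and PEG3 higher, DIRAS3 lower), of which DIRAS3 was tested only through KD3 and CTL, where it was higher. The 5 genes whose expressed allele depends on the isoform or tissue (GRB10, DDC, BLCAP, GNAS and INPP5F) had 2 lower in KD3 and 3 lower in KD4. Of the 3 genes without a settled allele (BEGAIN, DLX5 and COPG2), BEGAIN was lower in both. Maternally expressed genes had median log2 fold changes of -0.112 and 0.0947, and paternally expressed genes 0.0394 and 0.0323. UBE3A is counted here as maternally expressed, which holds for neurons. The allele used in these cells was not measured for UBE3A or any other gene, so the split follows the usual allele only. H19, also counted as maternally expressed, was tested only through CTL. Whether the alleles differed in these shares was not tested.

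At 11p15.5 all 8 genes were tested, and 5 passed in the same direction in both knock-downs, beside 20.3% of all tested genes. Of the 5, H19 was tested only through CTL, where it was highest. The study had already named KCNQ1, H19 and CDKN1C as down-regulated on these same arrays, so their part in this count is no independent support. These 5 were among the 6 maternally expressed genes, with 1 higher and 4 lower, while the log2 fold changes of the paternally expressed KCNQ1OT1 and INS lay between 0.04 and 0.24 and did not pass. The locus has an H19 domain at its telomeric side and a KCNQ1 domain, in which the RNA KCNQ1OT1 is transcribed from the paternal allele and flanking genes are expressed from the maternal allele.

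KCNQ1, a voltage-gated potassium channel subunit whose intron holds the control region, had log2 signals of 7.99, 8.23 and 8.51 in CTL, 6.99, 6.58 and 6.65 in KD3 and 7.01, 6.75 and 7.00 in KD4. All 6 knock-down arrays lay below the 3 CTL arrays. It differed from CTL by -1.50 ± 0.156 in KD3 (adjusted p = 0.000385) and by -1.32 ± 0.156 in KD4 (adjusted p = 0.000588), which left 35.3% and 40.0% of the signal. Its antisense RNA KCNQ1OT1, which overlaps it on the other strand, is read by a separate strand-specific probe. KCNQ1OT1 had 7.51, 7.72 and 7.67 in CTL, 7.93, 7.73 and 7.73 in KD3 and 7.66, 7.86 and 7.99 in KD4. These KD3 arrays lay just above CTL and the KD4 arrays overlapped it, with log2 fold changes of 0.17 (SE 0.107, adjusted p = 0.329) and 0.21 (adjusted p = 0.185).

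CDKN1C encodes the cyclin-dependent kinase inhibitor p57, a brake on fetal growth. Its log2 signals were 10.52, 10.86 and 10.91 in CTL, 9.67, 9.63 and 9.79 in KD3 and 9.80, 10.01 and 9.86 in KD4. The groups did not overlap, and KD3 lay below KD4. It differed from CTL by -1.07 ± 0.114 in KD3 (adjusted p = 0.000433) and by -0.87 ± 0.114 in KD4 (adjusted p = 0.000919), the latter close to the 1.8-fold limit of 0.85.

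PHLDA2, a PH domain protein known to restrain placental growth, moved the other way. It had log2 signals of 8.65, 9.00 and 8.70 in CTL, 10.16, 10.14 and 10.09 in KD3 and 10.38, 10.47 and 10.48 in KD4. The 3 groups did not overlap and KD4 was the highest. PHLDA2 was up-regulated by 1.35 ± 0.0967 in KD3 (adjusted p = 5.84e-05) and by 1.66 ± 0.0967 in KD4 (adjusted p = 1.73e-05), or 2.54-fold and 3.16-fold. The difference of 0.31 between KD4 and KD3 did not pass (adjusted p = 0.129). PHLDA2 rose while KCNQ1 and CDKN1C, usually expressed from the same parental allele of the same domain, fell. The allele used in these cells was not measured.

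Of the other genes of this domain, OSBPL5, an oxysterol-binding protein that moves lipids between membranes, had 9.84, 9.87 and 10.05 in CTL, 9.49, 9.38 and 9.40 in KD3 and 9.52, 9.43 and 9.50 in KD4. All knock-down arrays lay below CTL, by -0.50 ± 0.077 in KD3 (adjusted p = 0.0028) and -0.44 in KD4 (adjusted p = 0.00384). A second, dimmer OSBPL5 probe gave -0.15 and -0.46 and did not pass. SLC22A18, an organic cation transporter-like protein, had log2 fold changes of -0.17 and 0.17, neither of which passed, with a difference between KD4 and KD3 of 0.35 (adjusted p = 0.0745).

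H19, a long non-coding RNA made from the maternal allele, gave a dim signal of 4.76, 4.27 and 4.49 in CTL, 3.28, 3.26 and 3.88 in KD3 and 3.93, 3.78 and 3.73 in KD4. It was well above background on all CTL arrays but on only 1 array of KD3 and 1 of KD4, so the knock-down levels lie near the lower limit of detection. It differed from CTL by -1.04 ± 0.183 in KD3 (adjusted p = 0.00529) and by -0.70 ± 0.183 in KD4 (adjusted p = 0.0223). With normexp background correction, which adds an offset of 50 and compresses dim probes, the values were -0.21 (adjusted p = 0.0596) and -0.12 (adjusted p = 0.24), and neither passed. In KD4 the call was also lost when the arrays were scaled to their 75th percentile, with -0.50 (adjusted p = 0.105). It was lost as well without KD4 replicate 2 (adjusted p = 0.0633), KD4 replicate 3 (adjusted p = 0.0701), CTL replicate 1 (adjusted p = 0.0655) or CTL replicate 3 (adjusted p = 0.0585), at values of -0.70 to -0.57. INS, the insulin gene beside the H19 domain, was dim as well, at 4.95 ± 0.067 (SD, n = 3) in CTL, and its log2 fold changes of 0.24 and 0.04 did not pass.

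**Figure D2:**
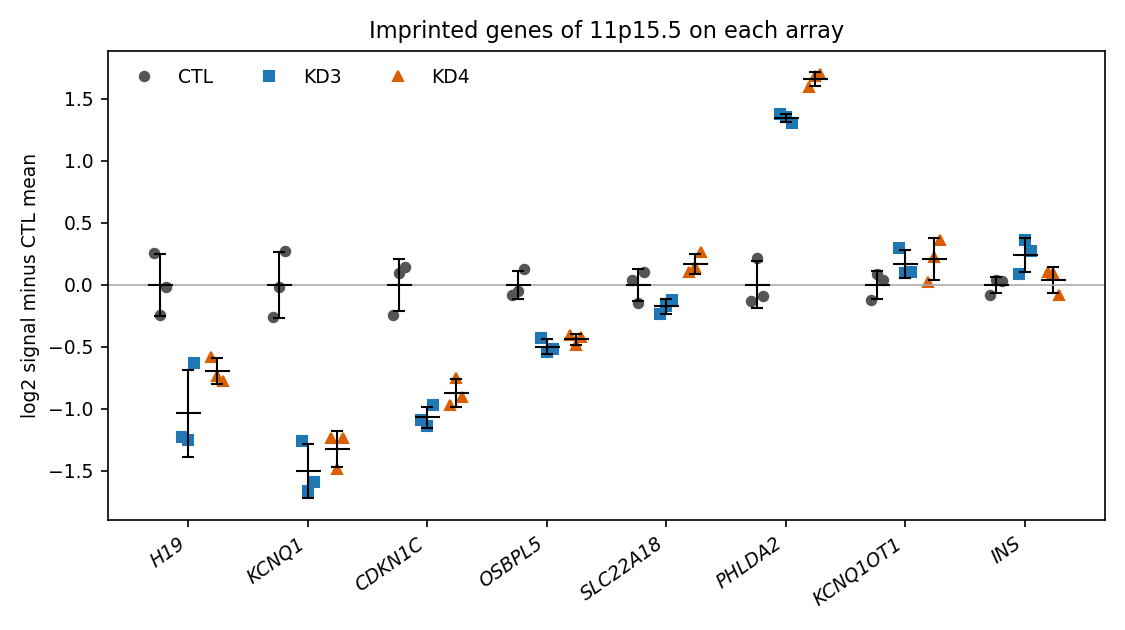
Log2 signal of each array minus the CTL mean of the same probe for the 8 imprinted genes of 11p15.5, with the mean and SD of 3 arrays in black. H19, KCNQ1, CDKN1C and OSBPL5 lie below CTL on all 6 knock-down arrays and PHLDA2 above. The last 2 genes on the x axis, KCNQ1OT1 and INS, are the paternally expressed ones.

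The genes lying between the outermost imprinted genes of a locus were read as a local comparison. They are no control free of imprinting. ASCL2, TSPAN32, CD81, NPAP1, IPW, PON2 and PON3 among them are also on the further list of genes reported as imprinted. At 11p15.5, 8 such genes were tested, with log2 fold changes between -0.49 and 0.60, so that 0 reached the fold of 1.8 at any p. At an unadjusted p under 0.05, 4 differed from CTL in each knock-down by limma, and 1 in KD3 and 2 in KD4 by the methods' t-test. CARS1, a cysteinyl-tRNA synthetase, was lower in both (-0.43, adjusted p = 0.00718, and -0.49, adjusted p = 0.00283). TSSC4 was higher in KD4 (0.60, adjusted p = 0.000699) and did not pass in KD3 (0.21, adjusted p = 0.0764). The difference for TSSC4 between KD4 and KD3 passed (adjusted p = 0.0337). Over 5 loci (11p15.5, 15q11, 14q32, 7q21 and 7q32), 26 of 39 genes in between were tested. Of these, 5 passed in KD3 (2 higher, 3 lower) and 8 in KD4 (4 higher, 4 lower), beside 25.5% and 34.8% of all tested genes. The log2 fold changes of the 26 lay between -0.73 and 0.84 in KD3 and between -0.49 and 0.67 in KD4. None of these 26 reached the fold of 1.8 in either knock-down, and CPA5 in KD3 came closest at 1.79-fold (adjusted p = 0.0765). Of all tested genes, only 4.40% in KD3 and 5.50% in KD4 passed with that fold. The neighbours were not tested against the imprinted genes as a group.

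**Figure D3:**
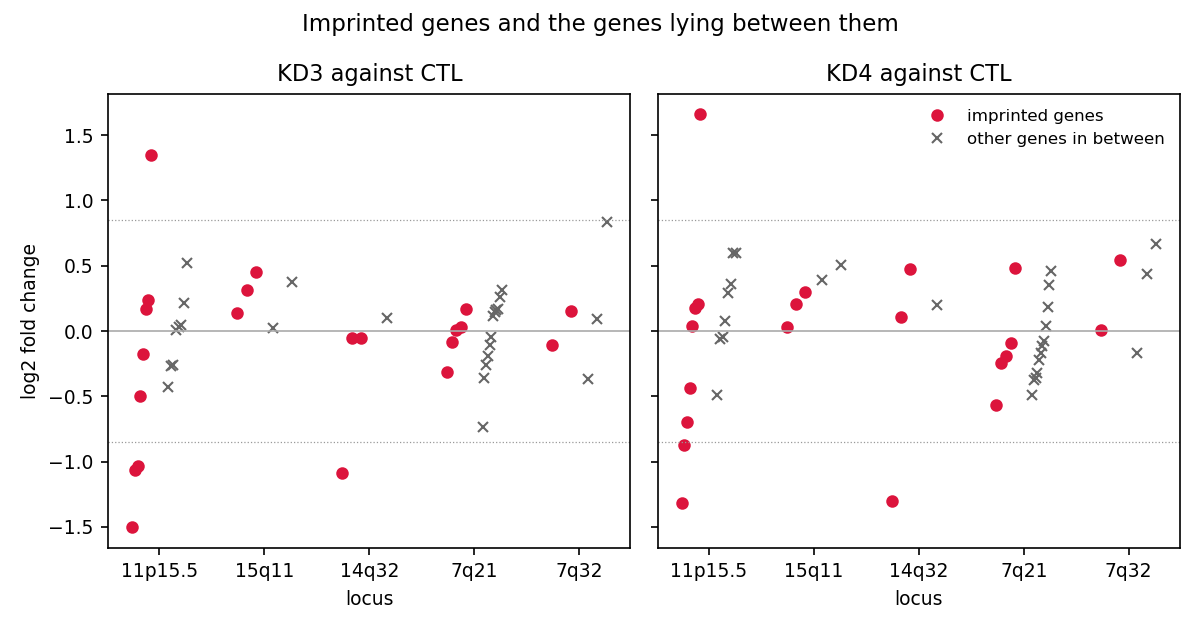
Log2 fold change against CTL at 5 loci, in KD3 on the left and KD4 on the right. Filled circles are the imprinted genes followed here, and crosses the other tested genes lying between them. Some crosses are genes also reported as imprinted. Dotted lines mark the 1.8-fold limit. Outside the limits with a passing test lie only filled circles, namely KCNQ1, CDKN1C, PHLDA2 and BEGAIN in both panels and H19 in KD3. Of all tested genes, 4.40% in KD3 and 5.50% in KD4 passed outside these limits.

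At 14q32, BEGAIN fell in both knock-downs, and its imprinted neighbours DLK1 and MEG3 did not pass as lower in either. BEGAIN, a protein found at synapses whose imprinting in human is not settled, had log2 signals of 8.46, 8.19 and 8.54 in CTL, 7.36, 7.26 and 7.30 in KD3 and 7.07, 6.96 and 7.26 in KD4. The 3 groups did not overlap. Its level changed by -1.09 ± 0.109 in KD3 (adjusted p = 0.000317) and by -1.30 ± 0.109 in KD4 (adjusted p = 0.000106), leaving 47.0% and 40.6% of the signal. DLK1, a paternally expressed inhibitor of adipocyte differentiation, had 8.35, 7.88 and 8.12 in CTL, 7.93, 8.05 and 8.22 in KD3 and 8.57, 8.60 and 8.61 in KD4. Only the KD4 arrays stood apart from CTL, by 0.47 ± 0.123 (adjusted p = 0.0209), against -0.05 in KD3 (adjusted p = 0.81). The difference between the knock-downs did not pass (0.53, adjusted p = 0.0647), and the KD4 call was lost without any 1 of the 3 KD4 arrays, CTL replicate 2 or CTL replicate 3 (adjusted p between 0.0503 and 0.0621, values between 0.36 and 0.49). A dimmer DLK1 probe gave -0.43 in KD3 (adjusted p = 0.0506) and 0.02 in KD4. The maternally expressed RNA MEG3 had log2 fold changes of -0.05 and 0.11 on its brighter probe and 0.06 and 0.17 on the other, all with an adjusted p of at least 0.508. RTL1, a retrotransposon-derived placental gene, was not above background on any array.

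At 15q11, the region of the Prader-Willi and Angelman syndromes, 4 of 7 genes were not above background on any array. They were the paternally expressed SNRPN, SNURF, NDN and MKRN3, of which SNRPN and SNURF lie on one transcript. UBE3A, a ubiquitin ligase expressed from the maternal allele in neurons and lost in Angelman syndrome, had 10.12, 10.13 and 9.94 in CTL, 10.44, 10.34 and 10.35 in KD3 and 10.39, 10.35 and 10.34 in KD4. Its knock-down arrays all lay above CTL, by 0.31 ± 0.0738 in KD3 (adjusted p = 0.0193) and 0.30 in KD4 (adjusted p = 0.0179). The KD3 call was lost without KD3 replicate 1 (0.28, adjusted p = 0.0579) or CTL replicate 3 (0.25, adjusted p = 0.0529), and the KD4 call without KD4 replicate 1 (0.28, adjusted p = 0.0619) or KD4 replicate 2 (0.30, adjusted p = 0.05). MAGEL2, a paternally expressed MAGE protein, had log2 fold changes of 0.14 and 0.03, and ATP10A, a phospholipid flippase, had 0.45 and 0.21 with a larger standard error of 0.24. Neither passed. NPAP1, which lies between these genes, was higher in both (0.38, adjusted p = 0.0388, and 0.39, adjusted p = 0.0263).

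At 7q21, 5 genes were tested and 0 passed in KD3 by limma, with 1 at an unadjusted p under 0.05 and 0 by the methods' t-test without adjustment. Of all tested genes, 25.5% passed in KD3 by limma. PEG10, a retrotransposon-derived gene, had log2 fold changes of -0.08 and -0.24. SGCE, the epsilon-sarcoglycan gene of myoclonus dystonia, shares a control region with PEG10 and had 0.03 and -0.19. Both are paternally expressed, and neither passed in KD4 (adjusted p = 0.112 for PEG10 and 0.12 for SGCE). The maternally expressed PPP1R9A, an actin-binding scaffold of neurons, had 9.90, 10.11 and 10.13 in CTL, 9.92, 9.76 and 9.52 in KD3 and 9.56, 9.44 and 9.44 in KD4. KD3 overlapped CTL and KD4 did not, with log2 fold changes of -0.31 (SE 0.112, adjusted p = 0.0838) and -0.57 (adjusted p = 0.00639). Without KD3 replicate 1 the KD3 value was -0.41 and passed (adjusted p = 0.042). A second PPP1R9A probe passed in both, at -0.56 (adjusted p = 0.0016) and -0.58 (adjusted p = 0.000946).

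TFPI2, a serine protease inhibitor abundant in placenta, had 7.08, 7.46 and 7.18 in CTL, 7.54, 7.00 and 7.19 in KD3 and 7.59, 7.73 and 7.83 in KD4. The KD4 arrays lay above CTL and the KD3 arrays were spread across it. It differed from CTL by 0.48 ± 0.151 in KD4 (adjusted p = 0.0434) and 0.01 in KD3 (adjusted p = 0.975). The KD4 call was lost without KD3 replicate 3, any 1 KD4 array, CTL replicate 1 or CTL replicate 3 (adjusted p between 0.0584 and 0.129, values between 0.40 and 0.54). DLX5, a homeobox gene, had log2 fold changes of 0.17 and -0.09. At 7q32, MEST was not above background on any array and CPA4 on only 1. COPG2 had -0.10 and 0.00, and KLF14 had 0.15 and 0.55 at a standard error of 0.338, without passing.

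Outside these clusters, 14 tested genes at single or paired loci, including COPG2 and KLF14, gave 3 passing genes in KD3, all lower, and 6 in KD4, 1 higher and 5 lower. Of all tested genes, 25.5% passed in KD3 and 34.8% in KD4. DIRAS3, a RAS-like GTPase of 1p31 known as a growth inhibitor expressed from the paternal allele, fell in KD4. Its log2 signals were 5.38, 5.11 and 5.52 in CTL, 4.82, 4.87 and 4.61 in KD3 and 3.60, 3.91 and 3.24 in KD4. The 3 groups did not overlap, and in KD4 it was well above background on only 1 array. It differed from CTL by -1.75 ± 0.174 in KD4 (adjusted p = 0.000243) and by -0.57 in KD3 (adjusted p = 0.0505). With so few KD4 arrays above background the size of the fall depends on how dim signals are treated, and with normexp the KD4 value was -0.50 (adjusted p = 0.000329). KD3 passed without KD4 replicate 2 (adjusted p = 0.0307), KD4 replicate 3 (adjusted p = 0.0271) or CTL replicate 2 (-0.68, adjusted p = 0.0429).

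DIRAS3 was also the only one of the 33 genes that passed between KD4 and KD3, with a log2 difference of -1.18 (SE 0.174, adjusted p = 0.0139). It was tested only through KD3 and CTL, where it was higher than in KD4, so this count is no independent support. Of all tested genes, 1.36% were higher and 1.92% lower in KD4 than in KD3. At an unadjusted p under 0.05, 11 of the 33 genes (beside 21.8% of all tested genes) were counted, and in 14 the KD4 and KD3 arrays did not overlap, which was the case for 34.4% of all tested genes. DLK1 passed in addition without CTL replicate 1 (0.53, adjusted p = 0.0413) or CTL replicate 2 (adjusted p = 0.0463). The difference for DIRAS3 did not pass without KD3 replicate 1 (-1.16, adjusted p = 0.0598) or KD3 replicate 2 (-1.13, adjusted p = 0.061), with scaling to the 75th percentile (-0.95, adjusted p = 0.0555) or with normexp (-0.28, adjusted p = 0.0672). SMCHD1 itself was lower in KD4 than in KD3 by 0.56 on the log2 scale (adjusted p = 0.0191), and its part in the DIRAS3 difference was not tested.

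NTM, the cell adhesion protein neurotrimin of 11q25, had 4.95, 4.96 and 5.00 in CTL, 3.70, 4.06 and 3.92 in KD3 and 4.28, 4.08 and 3.77 in KD4. Every knock-down array lay below CTL, and it differed from CTL by -1.08 ± 0.135 in KD3 (adjusted p = 0.000999) and -0.93 in KD4 (adjusted p = 0.00153). NTM is dim, and with normexp it passed at only -0.30 and -0.25. A second NTM probe, for another transcript, was not above background on any array.

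PEG3, a paternally expressed zinc finger gene of 19q13, had 8.99, 9.04 and 9.17 in CTL, 9.05, 9.07 and 9.44 in KD3 and 9.43, 9.49 and 9.53 in KD4. KD4 lay above CTL by 0.41 ± 0.112 (adjusted p = 0.0244), and KD3, at 0.12, did not pass (adjusted p = 0.516). The KD4 call was lost without any 1 KD4 array, CTL replicate 1 or CTL replicate 2 (adjusted p between 0.05 and 0.0757, values between 0.38 and 0.44). INPP5F, a phosphoinositide phosphatase gene with a paternally expressed isoform, had 8.97, 8.98 and 8.83 in CTL, 8.89, 8.78 and 8.73 in KD3 and 8.56, 8.66 and 8.60 in KD4. Its KD4 value of -0.32 passed (adjusted p = 0.014), though not without KD4 replicate 1 (-0.29, adjusted p = 0.0542), and its KD3 value of -0.13 did not. The second INPP5F probe had 0.21 and 0.10 and did not pass.

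GRB10 and GNAS, both with isoforms of opposite parental origin, passed by a small margin in both knock-downs. GRB10, an adaptor that dampens insulin receptor signalling, had 12.24, 12.43 and 12.43 in CTL, 12.22, 11.99 and 11.88 in KD3 and 12.06, 11.97 and 12.02 in KD4. Its log2 fold changes were -0.33 (adjusted p = 0.0487) and -0.35 (adjusted p = 0.0315), while its second probe had 0.01 and 0.09. The KD3 call of GRB10 was lost without any 1 KD4 array, KD3 replicate 2 or 3, or CTL replicate 2 or 3 (adjusted p between 0.0703 and 0.142, values between -0.33 and -0.26). Its KD4 call was lost without any 1 KD4 array, CTL replicate 2 or CTL replicate 3 (adjusted p between 0.0634 and 0.0942, values between -0.37 and -0.32).

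GNAS, the stimulatory G protein alpha subunit, had 16.96, 16.74 and 16.85 in CTL, 16.55, 16.58 and 16.58 in KD3 and 16.64, 16.67 and 16.54 in KD4. The log2 fold changes were -0.28 (adjusted p = 0.0302) and -0.24 (adjusted p = 0.045), and a second probe gave -0.26 in both and passed. Without any 1 KD3 array, KD4 replicate 1, CTL replicate 1 or CTL replicate 3 the KD3 call was lost (adjusted p between 0.0536 and 0.0788, values between -0.29 and -0.23). The KD4 call was lost without each array except CTL replicate 2 (adjusted p between 0.0555 and 0.143, values between -0.26 and -0.18). The other 2 GNAS probes, for other transcripts, were not above background on any array.

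**Figure D4:**
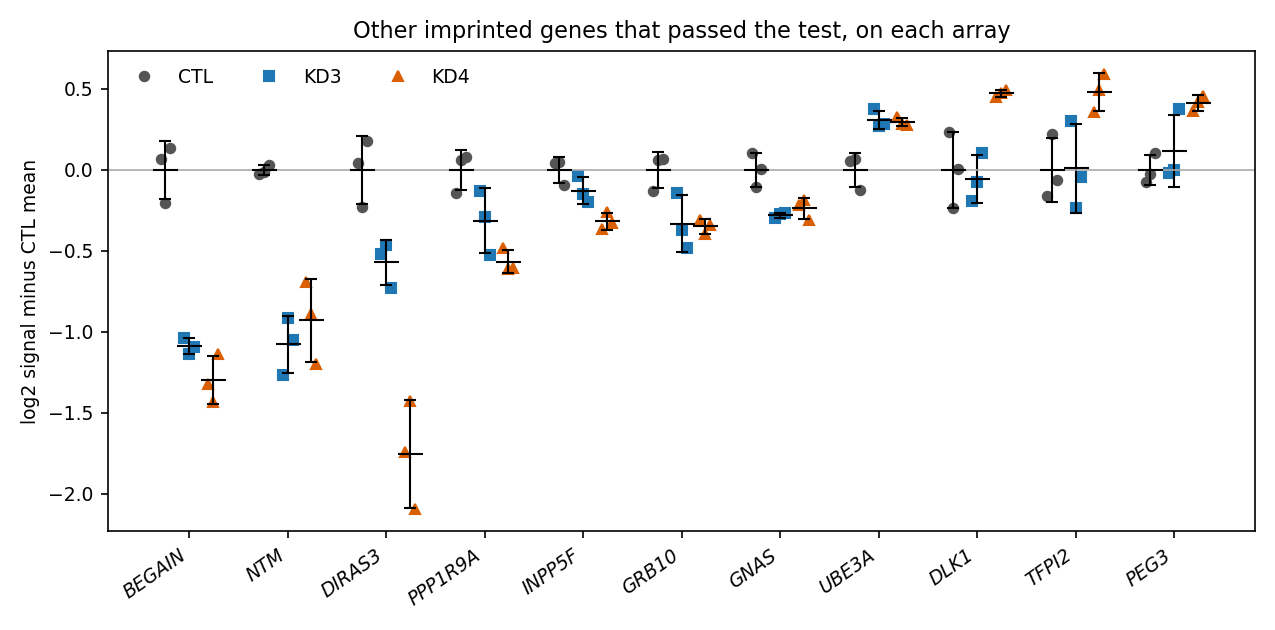
Log2 signal of each array minus the CTL mean of the same probe for the 11 imprinted genes outside 11p15.5 that passed in KD3 or KD4, with the mean and SD of 3 arrays in black. BEGAIN and NTM are low in both knock-downs, DIRAS3 is lowest in KD4, and DLK1, TFPI2 and PEG3 stand above CTL only in the KD4 arrays.

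Of the remaining tested genes, NNAT, a paternally expressed proteolipid of developing brain, had log2 fold changes of 0.14 and 0.25, with all knock-down arrays above CTL but an adjusted p of 0.331 and 0.0738. DDC, the aromatic amino acid decarboxylase next to GRB10, had -0.40 and -0.10. PLAGL1, a zinc finger growth regulator of 6q24, had -0.03 and -0.12, and RB1, the retinoblastoma gene of 13q14, had 0.17 and 0.08. BLCAP, whose intron holds NNAT, had -0.19 and 0.10 on its brighter probe, and L3MBTL1, a histone-binding repressor, had 0.04 and -0.22. The 17 genes that passed in neither knock-down had log2 fold changes between -0.40 and 0.55. KCNK9 had no matched probe.

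For 9 genes more than 1 probe was tested, and in 2 of them (MEG3 and GNAS) both probes gave the same outcome in both knock-downs. The second probe of BLCAP, with 7.79, 7.74 and 7.70 in CTL, 8.10, 8.12 and 8.24 in KD3 and 8.31, 8.28 and 8.28 in KD4, passed at 0.41 (adjusted p = 0.00326) and 0.55 (adjusted p = 0.000614). The second probe of L3MBTL1 passed in KD4 at -0.75 (adjusted p = 0.0015) and had -0.31 in KD3 (adjusted p = 0.0765). With any tested probe allowed to stand for its gene, 12 genes passed in KD3 and 18 in KD4.

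**Figure D5:**
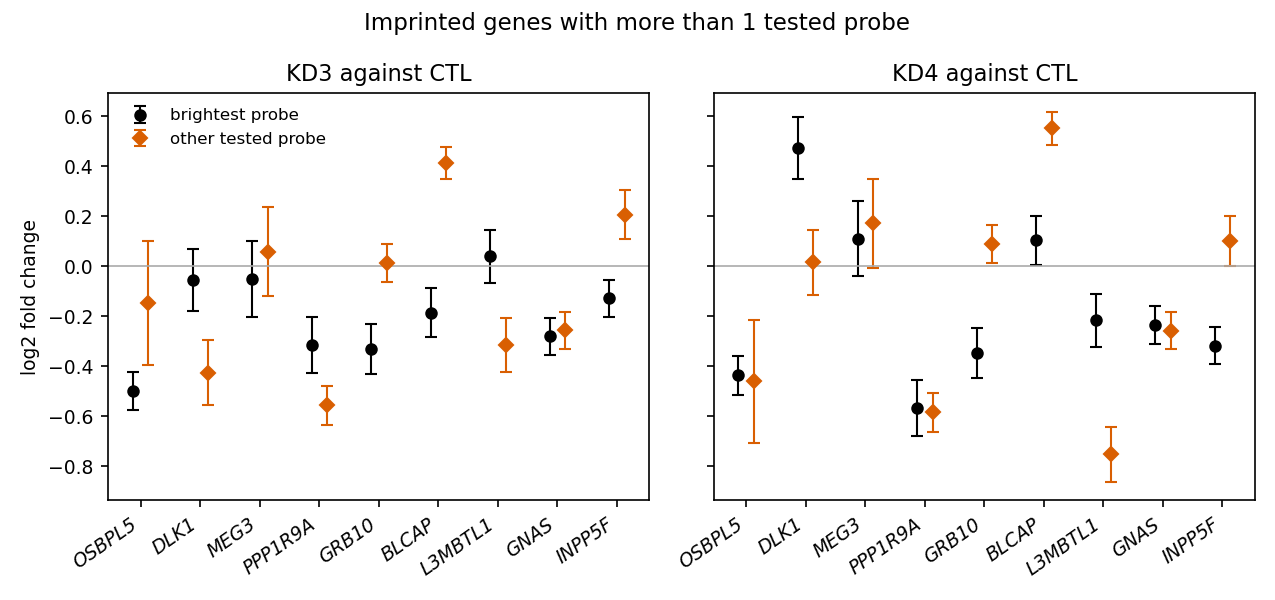
Log2 fold change against CTL for the 9 imprinted genes with more than 1 tested probe, in KD3 on the left and KD4 on the right, with bars of 1 standard error. Black circles are the brightest probes, which represent the gene in the counts, and orange diamonds the other tested probes. In 6 genes (OSBPL5, DLK1, GRB10, BLCAP, L3MBTL1 and INPP5F) the tested probes lie over 0.3 apart in at least 1 panel, and in PPP1R9A, MEG3 and GNAS they lie closer.

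The arrays were on 2 slides, which each held all 3 groups. Slide 1 held 1 KD3, 2 KD4 and 2 CTL arrays, and slide 2 held 2 KD3, 1 KD4 and 1 CTL array, so KD4 against CTL on slide 2 compared single arrays, and KD3 against CTL had a single array on one side on both slides. Values within a slide are therefore given as a description. The 27 passing values (10 in KD3, 16 in KD4 and 1 between them) had the same direction within slide 1 and within slide 2. The same arrays gave the passing values, so this is no independent check. KCNQ1 had log2 fold changes within slide 1 and slide 2 of -1.79 and -1.17 for KD3, then -1.49 and -0.98 for KD4. In the same order, CDKN1C had -1.25 and -0.79, then -0.94 and -0.72, and PHLDA2 had 1.29 and 1.47, then 1.63 and 1.73. H19 had -1.12 and -1.18, then -0.63 and -0.83. BEGAIN had -1.10 and -1.13, then -1.25 and -1.39, NTM had -0.93 and -1.14, then -1.06 and -0.67, and DIRAS3 had -0.44 and -0.67, then -1.74 and -1.78. With slide as a block in the model, 9 genes passed in KD3, 14 in KD4 and 8 in both. The calls lost were GRB10 in KD3 (adjusted p = 0.0858), GNAS in KD4 (adjusted p = 0.0545) and TFPI2 in KD4 (adjusted p = 0.0589).

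Imprinting is maintained by DNA methylation at CG dinucleotides, so the bases upstream of 4 of the down-regulated genes are shown with each CG in capitals. Each run is the 250 bases before the annotated start in RefSeq (GRCh38.p14), read in the direction of the gene.
H19 (chr11:2001267-2001516, minus strand): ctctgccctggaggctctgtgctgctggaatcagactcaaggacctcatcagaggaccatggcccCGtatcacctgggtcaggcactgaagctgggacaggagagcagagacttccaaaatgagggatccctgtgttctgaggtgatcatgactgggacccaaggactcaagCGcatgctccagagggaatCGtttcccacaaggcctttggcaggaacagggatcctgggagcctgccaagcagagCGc
BEGAIN (chr14:100568978-100569227, minus strand): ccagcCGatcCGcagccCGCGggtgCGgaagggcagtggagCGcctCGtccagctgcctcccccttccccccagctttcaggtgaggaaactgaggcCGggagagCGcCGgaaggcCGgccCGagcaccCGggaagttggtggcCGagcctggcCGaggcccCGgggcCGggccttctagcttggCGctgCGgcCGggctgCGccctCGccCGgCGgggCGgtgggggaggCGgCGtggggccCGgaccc
DIRAS3 (chr1:68050628-68050877, minus strand): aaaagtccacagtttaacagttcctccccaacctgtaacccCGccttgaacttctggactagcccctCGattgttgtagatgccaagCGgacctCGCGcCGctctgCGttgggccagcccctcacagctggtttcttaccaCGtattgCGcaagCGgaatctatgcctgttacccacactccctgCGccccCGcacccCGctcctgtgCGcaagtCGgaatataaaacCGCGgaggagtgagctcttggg
NTM (chr11:131370365-131370614, plus strand): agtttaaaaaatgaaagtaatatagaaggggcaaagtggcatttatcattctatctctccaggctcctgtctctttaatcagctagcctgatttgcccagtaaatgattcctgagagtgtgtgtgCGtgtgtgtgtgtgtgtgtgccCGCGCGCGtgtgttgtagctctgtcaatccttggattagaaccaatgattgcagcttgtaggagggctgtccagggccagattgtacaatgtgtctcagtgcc

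The number of CG dinucleotides differed widely among these 4, with 28 in BEGAIN, 17 in DIRAS3, 5 in NTM and 4 in H19. Promoter sequence was matched for 29 of the 41 genes, with a median of 13 CG in 250 bases, beside 11 over 35114 RefSeq promoters. The motif TGCCGC, bound when methylated by the imprint guardian ZFP57, was found on either strand in 9 of the 29 (31%) and in 12.7% of all promoters of this length. It stood upstream of OSBPL5, INS, SNURF, NDN, ATP10A, MEG3, KLF14, GRB10 and L3MBTL1, and upstream of none of the 4 genes shown. OSBPL5 and GRB10, not among those 4, also passed as lower in both knock-downs. The motif itself holds a CG, and its carriers ranged from 7 CG in INS to 37 in GRB10. The shares were not compared at equal CG content. Only the first listed promoter of each member was used, beside all promoters. CG counts and motif matches are letters in a short window, which is often not the control region of an imprinted gene, and methylation was not measured on these arrays. ZFP57 was above background on at most 2 arrays and was not tested.

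Of 31 genes that set or keep imprints, 23 were tested. With SMCHD1 included, 1 passed as higher and 3 as lower in KD3, and 2 as higher and 3 as lower in KD4. Of all tested genes, 25.5% passed in KD3 and 34.8% in KD4 in either direction. Besides the targeted SMCHD1, only CTCFL, a testis-expressed relative of CTCF, passed with a fold of at least 1.8 in both knock-downs (-0.92, adjusted p = 0.00134, and -1.18, adjusted p = 0.000301). Of all tested genes, 3.26% did so in the same direction. LRIF1, a partner of SmcHD1 on the inactive X, was higher in KD4 (0.77, adjusted p = 0.000921) and did not pass in KD3 (0.15), with a difference that passed (adjusted p = 0.0208). DNMT3B was lower in KD3 (-0.35, adjusted p = 0.0206) and TET2 higher (0.35, adjusted p = 0.02), and neither passed in KD4. DPPA3 was higher in KD4 (0.48, adjusted p = 0.0277) and ARID4A lower (-0.29, adjusted p = 0.0244). In a further list of 53 genes reported as imprinted, 37 were tested and 9 passed in the same direction in both knock-downs, 5 higher and 4 lower, beside 20.3% of all genes. Of the 5 that rose, WT1, a zinc finger transcription factor, had 1.01 and 0.80. LRRTM1, a synaptic adhesion gene (-1.51 and -1.31), and GDAP1L1 (-1.71 and -1.93) were lower. They were the 2 of the 37 that passed with a fold of at least 1.8 in both, beside 3.26% of all tested genes.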

How the data were processed

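The authors deposited 1 scanner file per array from Agilent Feature Extraction 10.10, which holds the intensity of each spot, with the green processed signal already background-subtracted. A log2 table deposited with them holds the processed signal as the authors normalized it in GeneSpring (quintile in the methods, read here as quantile). It was used as an alternative and differed from the values here by a median of -0.0755.

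Control spots and spots the scanner software marked as outliers, 260 to 634 of 58717 on each array, were removed, and log2 signals were quantile normalized in limma 3.58.1 (R 4.3.3). No spot was saturated, and arrays had a median processed signal from 119.582 to 181.372. Repeated spots were averaged per probe. Of 42405 probes, 21 lacked a value on at least 1 array and were removed. A probe counted as well above background when over 50% of its spots did, and was tested when it did so on all 3 arrays of any group. Probes were named by RefSeq accession, versions removed, from a table of the assembly GRCh38.p14, which named 25422 probes. Since the array was designed on an earlier build, no coordinates of probes are given. SLC22A18 was matched through its newer symbol.

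A single limma fit (lmFit, eBayes) over all 9 arrays gave every comparison. Every member was named once, with values per array for those that passed in KD3 or KD4. Alternatives were other scalings, normexp, the deposited log2 table, other filters, the methods' t-test, fits with only the groups compared, the replicate number or slide as a block, other probes, a fold threshold and leaving out each array. The members and the other gene lists were chosen with earlier results of these data known. Protein and methylation measurements of the study were not used here, and 1 cell marker is not reported here.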

Additional observations from a re-analysis of the deposited data

Results flagged for a closer look

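DIRAS3 differed between KD4 and KD3 in the direct test. The log2 level in KD4 minus that in KD3 was -1.18 (limma, adjusted p = 0.0139), with all 3 KD4 arrays below all 3 KD3 arrays. In KD4 the probe was well above background on 1 of 3 arrays, so the size is uncertain. The probe was tested only through KD3 and CTL, where it was higher. The call was lost with normexp (-0.28, adjusted p = 0.0672), with the 75th percentile (-0.95, adjusted p = 0.0555) and with the methods' t-test (adjusted p = 0.248). It was also lost without KD3 replicate 1 (adjusted p = 0.0598) or KD3 replicate 2 (adjusted p = 0.061). Within slide 1, which held a single KD3 array, the value was -1.30.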

How the results depend on the processing

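Counts of passing genes below are given for KD3, KD4, KD4 against KD3, and both knock-downs in the same direction, where the reported counts were 10, 16, 1 and 10. Leaving out 1 array at a time gave 7 to 10, 9 to 15, 0 to 2 and 6 to 10. The methods' t-test with adjustment gave 0, 2, 0 and 0, and without adjustment it gave 10 in KD3 and 15 in KD4. A fold of at least 1.8 in addition gave 6, 6, 1 and 5. After seeing the data, the last of these was also computed with normexp, which gave 2, with the 75th percentile, which gave 4, and from the authors' log2 table, which gave 5. The count for KD4 against KD3 was 0 with scaling to the 75th percentile, with normexp and with probes well above background on all 9 arrays (which drops DIRAS3), where 14, 11 and 11 genes had an unadjusted p under 0.05 by limma, and 2 with only the groups compared in the fit. The same replicate numbers did not pair the arrays (correlation of deviations -0.0772 to 0.145), and the fit with the replicate block gave 8, 13, 1 and 8, without GRB10 and GNAS in both knock-downs and TFPI2 in KD4. Values that did not pass in KD3 changed sign. TFPI2 had -0.039 with the 75th percentile, -0.014 with normexp, -0.312 within slide 1 and -0.138 to 0.131 when 1 array was left out. DLK1 had 0.044 within slide 1 and -0.172 to 0.062 when 1 array was left out. PEG3 had -0.037 within slide 1 and -0.010 to 0.188 when 1 array was left out. Among the 33 values of named genes, no other changed direction. The passing values of KCNQ1, CDKN1C, PHLDA2, BEGAIN, NTM and OSBPL5 in both knock-downs kept an adjusted p under 0.05 under each alternative run except the t-test and fits within a slide, though OSBPL5 was under 1.8-fold. The cause of these changes was not tested. Dim signal limits H19, NTM and DIRAS3, whose arrays lay near the lowest signal that was well above background (3.09 to 3.73).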
